A study of Saccharomyces cerevisiae with 7 samples.

Results

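The genes that encode the proteins of the cytosolic ribosome of budding yeast were examined in tracks of RNA polymerase II (RNAPII) occupancy. They were picked by name in RefSeq's R64 annotation (symbols beginning RPL, RPS or RPP followed by a number and, for duplicated genes, A or B). The pattern matched 138 protein-coding genes. Of these, 5 lie on chromosome IX, which was not analysed here, and 133 of 5781 open reading frames (ORFs) with values remained. The matched symbol RPP1 belongs to a subunit of RNase P and not to a ribosomal protein, so it was set apart, which left 77 genes of the large subunit and 55 of the small subunit, or 132 in all.

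RNAPII was measured by chromatin immunoprecipitation and sequencing (ChIP-seq) with an antibody to the repeats at the C terminus of its largest subunit, after formaldehyde crosslinking and fragmentation by micrococcal nuclease. The W303 cells grew in log phase in rich medium with glucose. The strains were wild-type (WT, CY1089), *rtt109Δ* (CY2210), which lacks an acetyltransferase of newly made histone H3, and *rrp6Δ* (CY2071), which lacks a nuclear exonuclease that works with the RNA exosome. There were 2 IP libraries a genotype and 1 input library for all. The values come as 1 track per genotype, so a difference between genotypes is a difference between 2 tracks, with no replicate check and no test.

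Ribosomal protein genes are among the most heavily transcribed genes of growing yeast. Rap1 binds their promoters and, with Fhl1, Ifh1 and Sfp1, ties their transcription to nutrients through the TOR kinase. Many of them are kept as pairs of closely related copies, named A and B, and many carry an intron, which is rare among yeast genes. Acetylation of H3 by Rtt109 marks newly deposited nucleosomes and goes with rapid nucleosome exchange at promoters. Rrp6 trims and degrades nuclear RNAs, among them the short noncoding transcripts that start near promoters.

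A value is the mean ratio of IP to input over the windows centred in a region, on a linear scale on which the median window of each track is 1. Windows were 100 bp long and lay every 50 bp. The ORF runs from start to stop codon with any intron, and the upstream region covers the 500 bp before the start codon. Log2 differences are those of a mutant ratio over the WT ratio, and a gene was called higher or lower past 1.3-fold (0.38 in log2), the limit of the study. Medians over genes carry a 95% order-statistic interval, which treats genes as independent and holds no replicate error. The depth of the libraries is unknown. The *rtt109Δ* track had a narrower range than the others, with an SD over windows of 0.661 against 0.897 in WT and 0.904 in *rrp6Δ*. The deleted genes were near 0 in their own tracks, RTT109 at 0.0178 in *rtt109Δ* against 1.36 in WT and RRP6 at 0.118 in *rrp6Δ* against 1.01 in WT.

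In WT the ribosomal protein ORFs held less RNAPII signal, by this ratio, than most other ORFs. Their median ratio was 0.823 (95% interval 0.756 to 0.864), against 0.974 over all 5781 ORFs, and 98 of the 132 lay below the median ORF. The lowest decile of all ORFs held 35 of them and the highest decile 5. The ratio thus did not place these genes among the highest ORFs, which is where their known transcription rate would place them, and the reason was not tested. The large subunit genes had a median of 0.827 and the small subunit genes 0.820.

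The spread among the members was wide, from 0.396 to 1.77 in WT. The highest was RPL31A, which encodes a protein at the rim of the peptide exit tunnel, with 1.77 in WT, 1.65 in *rrp6Δ* and 1.78 in *rtt109Δ*. RPS30B and RPS30A, the copies for a small protein of the mRNA entry channel, followed with 1.56 and 1.53 in WT. RPS10B, for a protein of the small subunit head, had 1.39. RPL41B, for the shortest protein of the ribosome, had 1.38, a value that rests on 2 windows. At the other end stood RPL8A (0.396), RPL1A (0.440), RPL10 (0.472), RPL4A (0.479) and RPL4B (0.479), all of the large subunit. These 5 are the 5 lowest of all members, and none of the small subunit genes is among them.

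**Figure D1:**
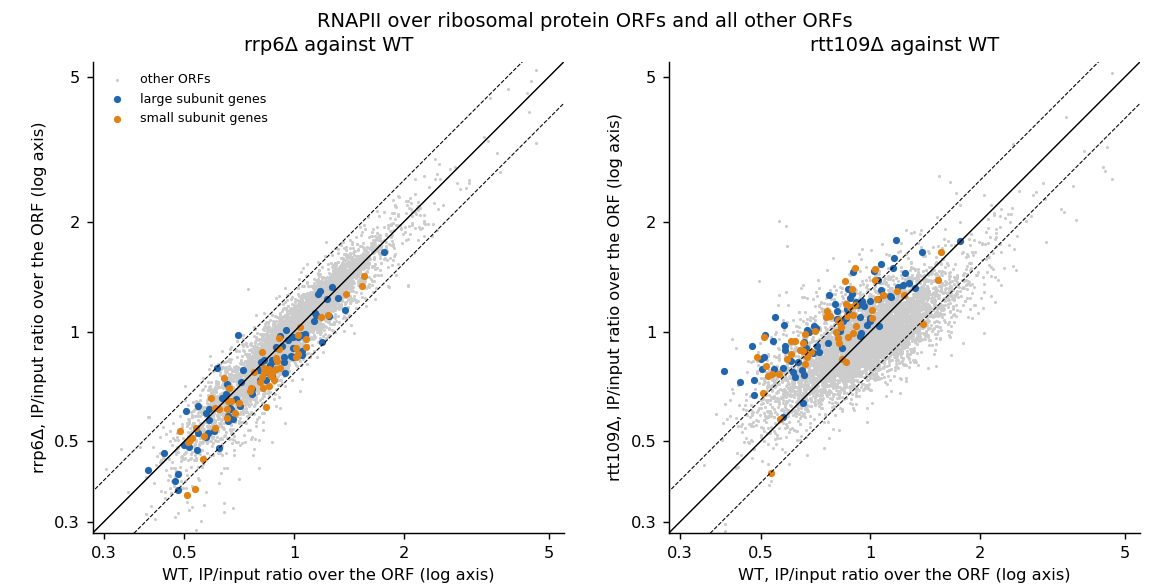
Mean IP/input ratio over each ORF in *rrp6Δ* (left) and *rtt109Δ* (right) against WT, both axes logarithmic. Blue points are the 77 large subunit genes, orange points the 55 small subunit genes and grey points the other ORFs; the solid line is equality and the dashed lines are 1.3-fold. In *rtt109Δ* 125 of the 132 coloured points lie above the line, and in *rrp6Δ* 30 do.

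In *rtt109Δ* the ribosomal protein ORFs stood higher than in WT nearly throughout. The median ratio was 1.04 (0.983 to 1.09), above the 0.943 of all ORFs, and 47 members lay below the median ORF where 98 had in WT. Their median percentile among all ORFs was 28.1 in WT and 66.9 in *rtt109Δ*, and 125 of 132 had the higher percentile in *rtt109Δ*. The highest decile of ORFs now held 29 members and the lowest decile 6. The median log2 difference was 0.39 (0.34 to 0.45), which is 1.31-fold, while that of all ORFs was -0.05.

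Past the limit, 68 of the 132 were higher in *rtt109Δ*, against a background of 8.74% of all ORFs, and 2 were lower, against a background of 9.53%. The 2 lower members were RPS10B and RPS29B. Differences above 0 were found for 125 members, and 23 members lay within 0.05 of the upper limit in log2, so that the count of 68 depends on where the limit is set. At a limit of 1.5-fold 25 members were higher, against 2.99% of all ORFs. At the 1.3-fold limit with each track divided by its mean window, 85 members were higher and 0 lower, and all ORFs split 797 higher to 233 lower. With division by the median ORF, 80 members were higher and 0 lower, and all ORFs split 644 to 371. As deposited, all ORFs split 505 to 551. Without a replicate the share of these differences that would recur in another pair of cultures is unknown. By subunit the counts were similar, with 40 of 77 large subunit genes higher and none lower, and 28 of 55 small subunit genes higher and 2 lower. The medians were 0.39 for each subunit, with intervals of 0.33 to 0.48 (large) and 0.30 to 0.48 (small).

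**Figure D2:**
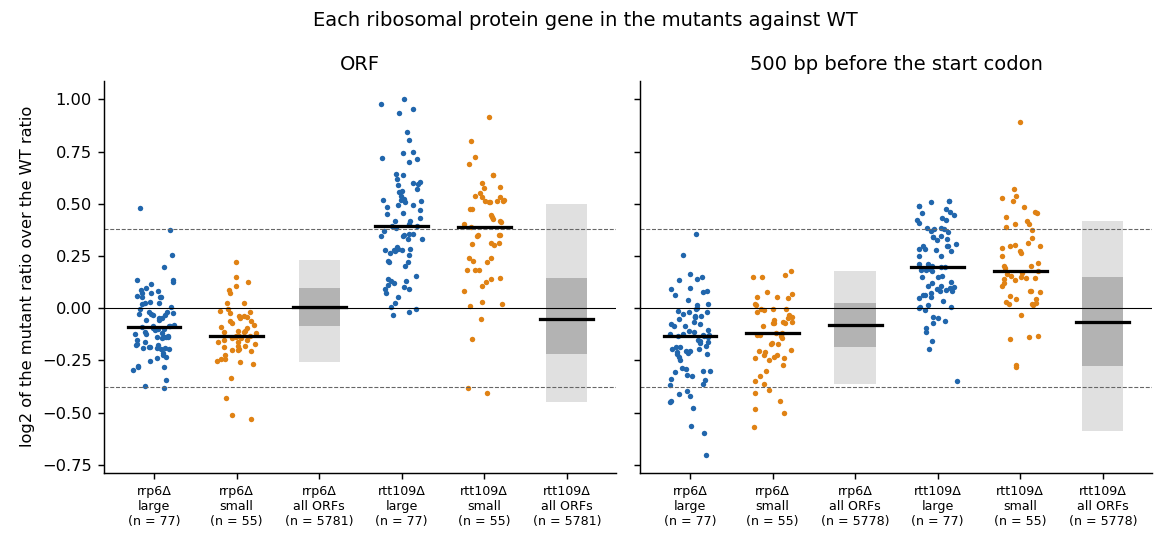
Log2 of the mutant ratio over the WT ratio for each ribosomal protein gene (points; blue large subunit, orange small subunit; bars mark the median), over the ORF (left) and the 500 bp before the start codon (right). For all ORFs the light and dark boxes span the middle 90% and 50% and the bar is the median; dashed lines are 1.3-fold. Over the ORF the *rtt109Δ* medians of both subunits are 0.39, against -0.05 for all ORFs.

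Among the large subunit genes the differences in *rtt109Δ* were largest for RPL9B, RPL8A, RPL10 and RPP0. RPL9B (YNL067W, chromosome XIV, 499681 to 500256), for a protein at the base of the stalk, had 0.546 in WT, 0.626 in *rrp6Δ* and 1.09 in *rtt109Δ*, a log2 difference of *rtt109Δ* to WT of 1.00. Its copy RPL9A went from 0.604 in WT and 0.535 in *rrp6Δ* to 0.828 in *rtt109Δ*, or 0.45 in log2. The copies RPL9A and RPL9B thus differed more in *rtt109Δ* than in WT, and B was then the higher. RPL9B had the largest difference of all members, so this gap can follow from the choice alone.

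RPL8A (YHL033C, chromosome VIII, 35255 to 36025), the member with the lowest WT ratio, had 0.396 in WT, 0.416 in *rrp6Δ* and 0.780 in *rtt109Δ*, a difference of 0.98. RPL10 (YLR075W, chromosome XII, 282927 to 283592) encodes a protein near the P site that joins the subunit late, in the cytoplasm. It had 0.472 in WT, 0.389 in *rrp6Δ* and 0.915 in *rtt109Δ*, a difference of 0.95. RPL3, for a protein that reaches into the peptidyl transferase centre, had 0.540 in WT, 0.472 in *rrp6Δ* and 0.945 in *rtt109Δ*, or 0.81 in log2. In RPL10 and RPL3 the *rtt109Δ* value was the highest and the *rrp6Δ* value the lowest of the 3 tracks. This is not particular to them, since *rtt109Δ* was the highest track in 124 of the 132 members. The median log2 difference of *rrp6Δ* to WT over the members was -0.11.

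The P stalk, which binds translation factors, consists of P0 with P1 and P2 proteins. RPP0 (YLR340W, chromosome XII, 805887 to 806825), for P0, had 0.514 in WT, 0.481 in *rrp6Δ* and 0.981 in *rtt109Δ*, a difference of 0.93. The P1 genes RPP1A and RPP1B differed by 0.61 and 0.42, and the P2 genes RPP2A and RPP2B by 0.28 and -0.03. Of the 5 stalk genes, 3 were therefore past the limit in *rtt109Δ*, which is near the 51.5% of all members that were higher past it. RPP0 had the largest difference of the 5. The 3 genes of the 5S ribonucleoprotein, which is built before it joins the large subunit, were all past the limit, a count too small to set against the other members, RPL5 at 0.84, RPL11B at 0.47 and RPL11A at 0.39. Of 14 genes for proteins at the rim of the exit tunnel, where new chains leave the ribosome, 14 were above 0 and 7 past the limit, again near the share of all members, with a range of 0.01 (RPL31A) to 0.60. RPL31A and RPL31B, the highest pair of this group in WT, had the differences 0.01 and 0.10.

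RPS31 and RPL40B encode a ribosomal protein fused to ubiquitin. RPS31 (YLR167W, chromosome XII, 498947 to 499405) had 0.512 in WT, 0.497 in *rrp6Δ* and 0.966 in *rtt109Δ*, a difference of 0.92 and the largest among the small subunit genes. RPL40B had 1.14, 1.13 and 1.24 in the same order, a difference of 0.12. RPS31 was below RPL40B in all 3 tracks, by least in *rtt109Δ*. Among the genes for the mRNA entry channel, RPS2 and RPS3 were past the limit (0.64 and 0.51), while RPS30B and RPS30A were at 0.08 and -0.15.

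The 7 members at or below their WT level in *rtt109Δ* are quickly named. RPS10B (YMR230W, chromosome XIII, 732414 to 733141) had 1.39 in WT, 1.27 in *rrp6Δ* and 1.05 in *rtt109Δ*, a difference of -0.41, whereas its copy RPS10A had 0.829, 0.796 and 1.03, a difference of 0.31. RPS29B, for a small zinc-binding protein of the head, had 0.534, 0.370 and 0.410, or -0.38 in log2, over 3 windows. RPS30A (-0.15), RPS25B (-0.05), RPP2B (-0.03), RPL36A (-0.02) and RPL42B (-0.00227) were within the limit. Of these 7, RPS10B, RPS30A, RPL36A and RPL42B lay above 1 in WT and the other 3 below it.

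Because ORFs with low WT ratios were higher in *rtt109Δ* in general and those with high ratios lower, the members were set beside other ORFs of the same WT level. All ORFs were ranked by WT ratio and split into 10 equal parts, which share the WT track with the difference they are compared on. In each of the 10 the median log2 difference of the members was above that of the other ORFs, by 0.27 to 0.41. In the lowest decile the 35 members had a median of 0.60 and the 544 other ORFs 0.30. In the highest decile the 5 members had 0.01 and the 573 others -0.33. Of the 132 members, 125 were above the median of the other ORFs in their own decile. With other ORFs restricted to those no longer than the longest member (1662 bp), the gap was 0.30 to 0.44. Ranked by the *rrp6Δ* track instead, which does not enter the difference, 7 deciles held at least 5 members, and in these the gap was 0.20 to 0.36. The members on each of the 14 chromosomes that hold any had a median above that of the other ORFs there, and the chromosome medians of the members ran from 0.26 to 0.53.

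**Figure D3:**
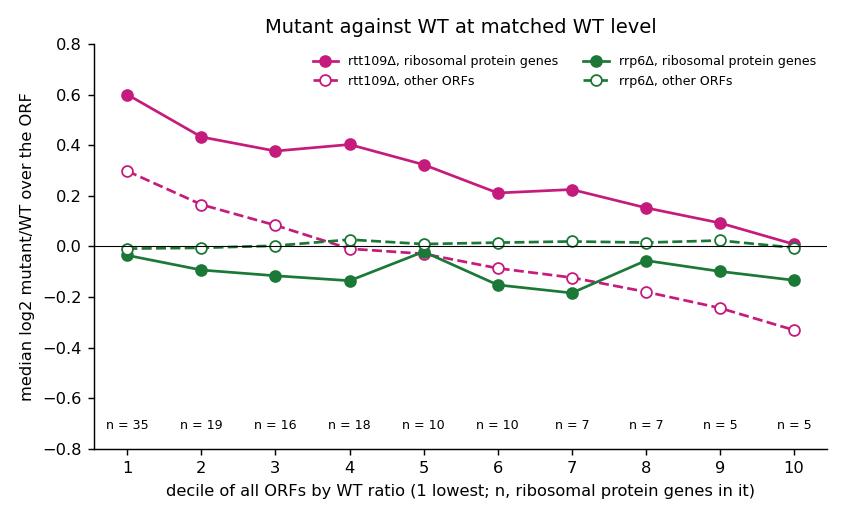
Median log2 of the mutant ratio over the WT ratio within each decile of all ORFs ranked by WT ratio, for ribosomal protein genes (filled points) and other ORFs (open points), in *rtt109Δ* (magenta) and *rrp6Δ* (green); n is the number of ribosomal protein genes. In *rtt109Δ* the filled points lie 0.27 to 0.41 above the open ones, while both decline from the lowest to the highest decile.

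In *rrp6Δ* the ribosomal protein ORFs were slightly lower than in WT. The median ratio was 0.768 (0.710 to 0.796), and the median log2 difference was -0.11 (-0.13 to -0.08), against 0.01 over all ORFs. Above 0 were 30 of the 132. Past the limit, 4 members were lower, against a background of 1.82%, and 1 was higher, against 0.709%. Of these 5 calls, 4 rest on 4 windows or fewer. The lower ones were RPS29B (-0.53, 3 windows), RPS28B (-0.51, 4 windows), RPS28A (-0.43, 4 windows) and RPL4B (-0.38, 21 windows), followed within the limit by RPL12B (-0.37). RPL4B encodes a protein with a long loop in the wall of the exit tunnel and was at 0.479 in WT, at 0.367 in *rrp6Δ* and at 0.670 in *rtt109Δ*. The higher one was RPL41A (0.48, 1 window), and within the limit came RPL29 (0.37, 3 windows), RPL24B (0.26), RPS22A (0.22) and RPL9B (0.20). The medians were -0.09 for the large and -0.13 for the small subunit.

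Set against each other directly, *rtt109Δ* and *rrp6Δ* differed over these genes more than either did from WT. The median log2 ratio of *rtt109Δ* to *rrp6Δ* was 0.45 (0.41 to 0.53), against -0.06 over all ORFs. Past the limit, 86 of the 132 were higher in *rtt109Δ*, against a background of 11.3%, and 0 were lower, against 11.4%. Of the 125 members that were higher in *rtt109Δ* than in WT, 124 were also higher than in *rrp6Δ*. This comparison shares the *rtt109Δ* track with the one against WT.

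Over the 500 bp before the start codon the *rtt109Δ* values were also above WT, by less than over the ORF. The *rtt109Δ* median was 1.32, against 1.14 in WT and 1.12 in *rrp6Δ*, whereas over all ORFs it was 1.303 in each mutant and 1.36 in WT. The median log2 difference in *rtt109Δ* was 0.19 (0.15 to 0.25), against -0.06 over all ORFs, and 116 members were above 0. Past the limit, 29 were higher, against a background of 6.63%, and 0 were lower, against 15.9%. The count of 29 was not stable, since it was 1 at 1.5-fold (1.51% of all ORFs), 4 with a pseudocount (1.85%), 48 with each track divided by its mean window (12.5%), 50 with the *rtt109Δ* values given the WT distribution by rank (11.5%) and 56 over 250 bp (8.92%). Higher over both the ORF and the upstream region were 19 members. No share over all ORFs was taken for this joint count, so nothing is read from it. Among the members the ORF and upstream differences had a Spearman rank correlation of 0.15, against 0.45 among the other ORFs. In 37 of the 132 the upstream region meets another ORF, so that part of the value belongs to a neighbour.

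RPS3, for a protein of the mRNA entry channel, had the largest upstream difference, with 0.881 in WT, 0.931 in *rrp6Δ* and 1.64 in *rtt109Δ*, or 0.89 in log2. RPS7B (0.57) and RPS0B (0.54) came next. The lowest were RPL4B (-0.35), RPS21A (-0.28) and RPS10B (-0.27), none past the limit. RPS10B was therefore below WT in both regions, while RPL4B was above WT over the ORF and below it upstream. In 4 places, 2 ribosomal protein genes are divergent neighbours with shared upstream sequence (RPS16B with RPL13A, RPS22A with RPL39, RPL13B with RPS16A, and RPS15 with RPP2A), so these 8 upstream values are not independent. RPS15 and RPP2A had upstream differences of 0.46 and 0.46, but 0.02 and 0.28 over their ORFs.

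In *rrp6Δ* the upstream difference had a median of -0.13, against -0.08 over all ORFs. Past the limit, 15 members were lower, against a background of 4.43%, and 0 were higher, against 0.363%. The lowest were RPL19A (-0.70), RPP2A (-0.60) and RPS16A (-0.57). RPL19A, for a protein that bridges the subunits, was at 0.922 in WT, at 0.567 in *rrp6Δ* and at 1.00 in *rtt109Δ*. The highest were RPL8A (0.35), RPL6A (0.26) and RPS27B (0.18), none past the limit.

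Averaged over the members, the profile before the start codon had a trough that the mean of the other ORFs did not show. At 200 bp before the start codon the WT mean was 0.77, with 0.56 in *rrp6Δ* and 0.852 in *rtt109Δ*, against 1.59, 1.504 and 1.43 over the other ORFs. At 100 bp before it the members had 1.61, 1.67 and 2.04, against 1.86, 1.81 and 1.69. The peak was thus higher in *rtt109Δ* than in WT over the members and lower over the other ORFs. Inside the ORF, 200 bp after the start codon, the members had 0.99, 0.98 and 1.28.

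The trough was present in most members. The upstream region was divided, after the profile had been seen, into a part next to the start codon (150 bp), a middle part (150 to 250 bp) and a distal part (250 to 500 bp). In WT the middle part was below both others in 103 of 131 members with values in all 3 (78.6%), against 32.8% of other ORFs. The share was 81.7% in *rrp6Δ* and 79.4% in *rtt109Δ*. The middle part had a WT median of 0.710, with 0.515 in *rrp6Δ* and 0.824 in *rtt109Δ*, against 1.29, 1.22 and 1.26 over the other ORFs.

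In the middle part the *rrp6Δ* values were lower, with a median log2 difference of -0.49 against -0.11 over the other ORFs, and 121 of 131 members were below 0, against 66.2% of other ORFs. Past the limit, 80 of 131 were lower, against a background of 17.3%. The bounds of the middle part were set after the members' profile had been seen, so this contrast with other ORFs is a description and no test. RPL19A had 0.621 there in WT, 0.313 in *rrp6Δ* and 0.734 in *rtt109Δ*. Over the same 100 bp the *rtt109Δ* values lay above WT, with a median of 0.23 against -0.06 over the other ORFs. In the part next to the start codon, the *rrp6Δ* median was -0.02 and the *rtt109Δ* median 0.38, and 67 of 132 members were past the limit in *rtt109Δ*, against a background of 11.0%. In the distal part the *rrp6Δ* median was -0.15 and the *rtt109Δ* median 0.10, against -0.10 and -0.05 over the other ORFs.

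**Figure D4:**
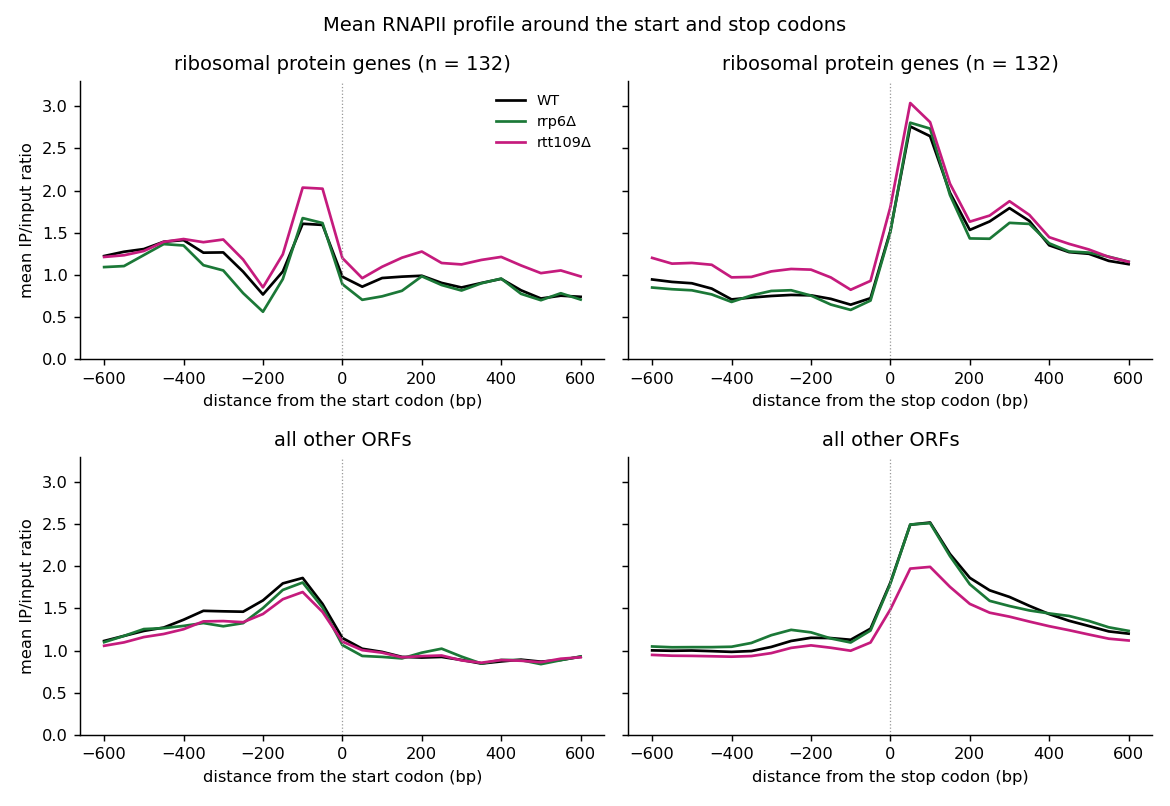
Mean IP/input ratio of windows against distance from the start codon (left) and the stop codon (right) for the 132 ribosomal protein genes (top) and all other ORFs (bottom), in WT (black), *rrp6Δ* (green) and *rtt109Δ* (magenta). The ribosomal protein genes have a trough 200 bp before the start codon (0.77 in WT, 0.56 in *rrp6Δ*, 0.852 in *rtt109Δ*), and *rtt109Δ* is the highest track over the ORF.

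Along the ORF, the 98 members of at least 600 bp were split into 3 equal parts. In WT their medians were 0.987 in the first, 0.772 in the middle and 0.740 in the last part, and 67 of the 98 had more in the first than in the last part, against 27.0% of other ORFs of that length. At 150 bp after the start codon, members of any length with a span not a multiple of 3 (described below) had a WT mean of 1.25. The remaining members had 0.80 and the other ORFs 0.92. At 100 bp before the stop codon the members had 0.66 and 0.64 in the same order. The count of 67 was not split by span, so it is not read as a trait of all members. In *rtt109Δ* the log2 differences were 0.31, 0.49 and 0.42 from first to last, and 78 of the 98 were above 0 in all 3 parts, against 22.6% of 4579 other ORFs. In the middle part 67 of 98 were past the limit, against a background of 14.1%. In *rrp6Δ* the differences were -0.22, -0.02 and -0.06, and in the first part 84 of 98 were below 0, against 54.9% of other ORFs of that length.

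After the stop codon, over 500 bp, the members were slightly above WT in *rtt109Δ* and most ORFs below it. The median log2 difference of *rtt109Δ* to WT was 0.11 for the members and -0.22 for all ORFs. Past the limit, 14 members were higher, against a background of 3.86%, and 2 were lower, against 30.6%. At 50 bp after the stop codon the members had 2.76 in WT, 2.81 in *rrp6Δ* and 3.04 in *rtt109Δ* over 90 windows, and the other ORFs 2.49, 2.50 and 1.97.

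Of the 132 members, 108 form 54 A and B pairs, 19 have no second copy in the naming and 5 have a copy on chromosome IX. Reads from stretches that are the same in both copies cannot be assigned to a copy, and how they were treated is not given in the sources used here, so the copies cannot be fully told apart. In WT the copies differed over the ORF by a median of 0.33 in absolute log2 (0.20 to 0.41), or 1.25-fold, and 23 of 54 pairs were past the limit, with A higher in 9 and B in 14. Over the upstream region the median was 0.38 and 27 pairs were past the limit. The copy with more signal over the ORF was also the one with more upstream in 32 of 54 pairs. The log2 of A over B in WT had a Pearson r of only 0.14 between the ORF and the upstream region. The upstream difference thus followed the ORF difference weakly at most.

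The largest difference was in RPL41 (-0.98 in log2 of A over B, on 1 and 2 windows). RPL36, for a large subunit protein, had 1.05 for A and 0.543 for B in WT, a log2 of 0.96. RPS19, whose protein is needed to mature the small subunit, had 1.23 for A and 0.654 for B, or 0.92. RPL31 (0.83), RPL21 (-0.78) and RPS10 (-0.75) came next. In *rtt109Δ* the log2 of A over B was 0.40 for RPL36, 0.51 for RPS19, 0.73 for RPL31, -0.72 for RPL21 and -0.03 for RPS10. The RPS10 copies, far apart in WT, were thus nearly level in *rtt109Δ*, while in *rrp6Δ* they were at -0.67. These pairs were picked by their WT difference, so a smaller value in another track can follow from the choice alone. Over all 54 pairs the median absolute log2 was 0.29 in *rtt109Δ*, against 0.33 in WT. The smallest differences in WT were in RPL4 (-0.00145), RPS30 (-0.02) and RPL33 (-0.04). Over the ORF RPL4A and RPL4B were at the same level, and upstream they had 1.34 and 2.14.

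Both copies were above 0 in *rtt109Δ* in 47 of 54 pairs and on opposite sides of 0 in 7. Both were higher past the limit in 15 pairs, a single copy was higher in 22 and a single copy was lower in 2 (RPS10 and RPS29), which left 15 pairs with neither copy past it. Of all 132 members, 68 were higher past the limit. No share for unrelated members put together as pairs was taken, so nothing about a link between copies is read from these counts. RPL15, named after its values were seen, had a *rtt109Δ* difference of 0.75 for RPL15A and 0.02 for RPL15B, a gap between copies of 0.72. The gap in RPS10 was also 0.72 and that in RPS29 was 0.68, with copies on opposite sides of 0. The copy that was higher in WT was also higher in *rtt109Δ* in 47 pairs and in *rrp6Δ* in 47. Over the 54 pairs, the log2 of A over B in WT had a Pearson r of 0.75 with that in *rtt109Δ* and of 0.88 with that in *rrp6Δ*. This is a description, since the points share the input library, gene length and base composition.

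**Figure D5:**
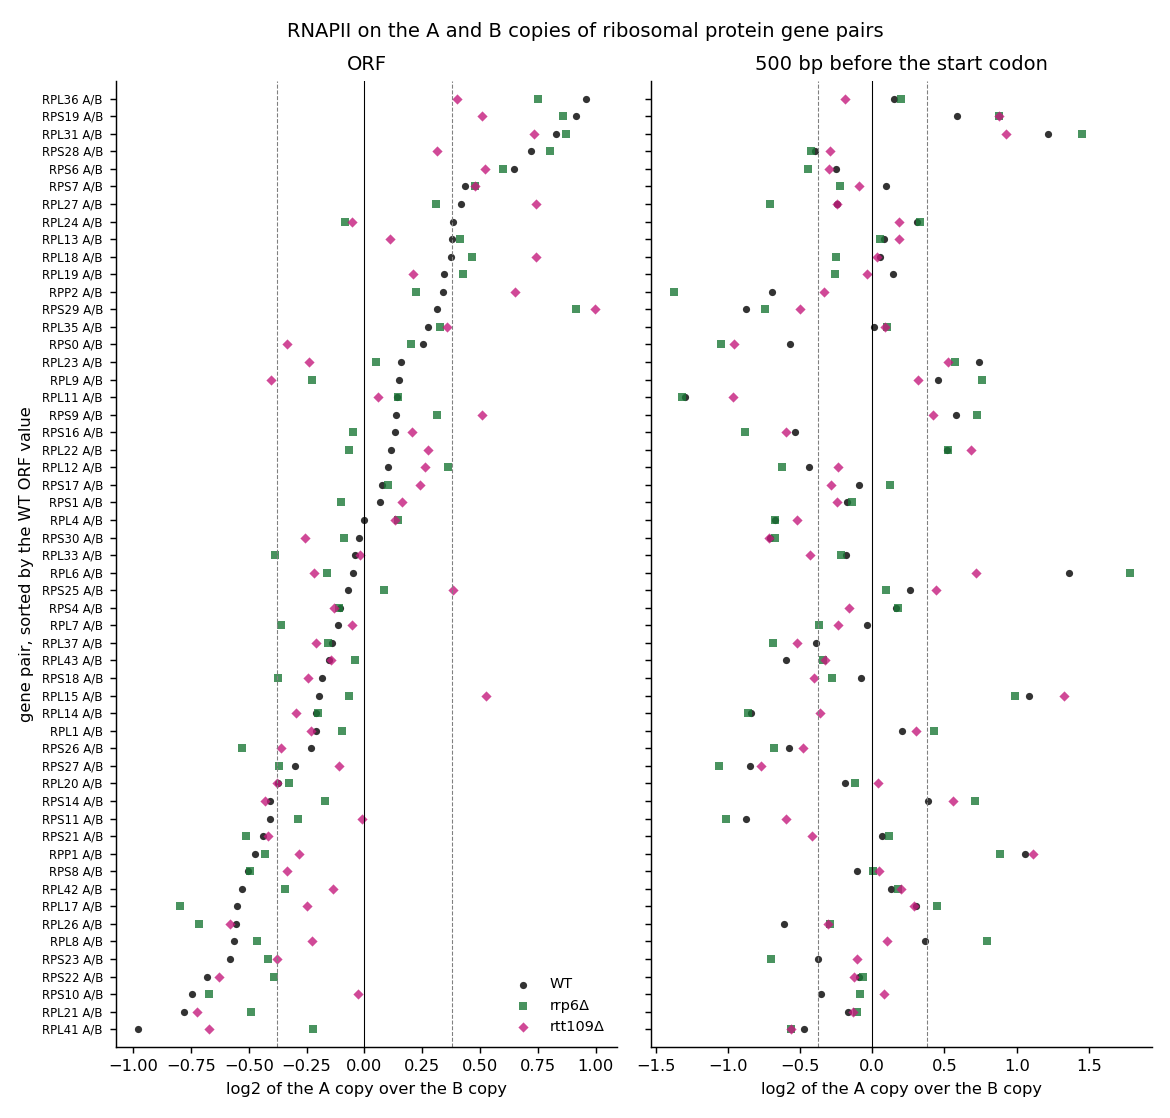
Log2 of the A copy over the B copy of 54 ribosomal protein gene pairs over the ORF (left) and the 500 bp before the start codon (right), in WT (black circles), *rrp6Δ* (green squares) and *rtt109Δ* (magenta diamonds), sorted by the WT value over the ORF. Dashed lines are 1.3-fold. In WT 23 pairs lie outside them over the ORF and 27 upstream.

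The 19 genes without a second copy, whose reads have no annotated copy to fall on, had a WT median of 0.606, a *rrp6Δ* median of 0.579 and a *rtt109Δ* median of 0.937. All 19 were above 0 in *rtt109Δ*, 14 of them past the limit, with a median log2 difference of 0.53. Their WT median lies in the lowest decile of all ORFs (0.305 to 0.647). In that decile 30 of the 35 members and 35.1% of the other ORFs were higher past the limit, and the members' median was 0.60. The 19 were not matched for WT level, so no link to the lack of a copy is read from this. The 19 include RPL3, RPL5, RPL10, RPP0, RPS3 and RPS31 described above. The smallest difference among them was that of RPS15 (0.02), for a protein of the small subunit head.

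A span from start to stop codon that is not a multiple of 3 holds an intron or, rarely, a programmed frameshift, and 52 members had such a span. The converse does not hold, since an intron can also have a length that is a multiple of 3. These 52 had a WT median of 0.926 and the other 80 members 0.665. Other ORFs with such a span include the long frameshifted ORFs of Ty elements, so only the 92 of them no longer than the longest member were set beside these, and they had 1.13. In *rtt109Δ* the 52 had a median difference of 0.28 with 15 higher past the limit, and the 80 had 0.48 with 53. The background was 8.74% of all ORFs. The 52 and the 80 were not matched for WT level, with which this difference declined, so no link to the span is read from it. In the middle upstream part the 52 had a *rrp6Δ* median difference of -0.60 and the 80 had -0.39. Their WT means at 200 bp before the start codon were 0.69 and 0.82. This contrast was not matched for WT level either, and the bounds of the part were set after the profile had been seen. No link to the span is read from it. Introns themselves were not analysed here.

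Genes for regulators and partners of the ribosomal proteins were past the limit in *rtt109Δ* in 3 of 28 cases, against 18.3% of all ORFs in either direction, and nothing particular to them is read from these counts. Of 15 genes for regulators of ribosomal protein transcription, among them RAP1, FHL1, IFH1 and SFP1, 0 were higher past the limit in *rtt109Δ* and 1 was lower, CRF1 (-0.50), which encodes a corepressor of ribosomal protein genes. Their median difference was 0.04. Of 13 genes for dedicated chaperones and other partners of ribosomal proteins, 2 were higher and 0 lower, with a median of -0.10. The higher ones were ASC1 (0.59), which encodes a protein bound to the small subunit head, and STM1 (0.57), which encodes a ribosome-associated protein, and in WT both had low ratios, 0.742 and 0.523. The 74 mitochondrial ribosomal protein genes had a median of 0.961 in WT and a median difference of -0.09 in *rtt109Δ*, with 2 higher and 10 lower, against the backgrounds of 8.74% and 9.53%. RPP1, the RNase P gene set apart, had 0.741 in WT, 0.651 in *rrp6Δ* and 0.773 in *rtt109Δ*.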

How the data were processed

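RNAPII ChIP-seq was deposited as 1 track of IP/input ratios per genotype, in 228888 windows on 15 chromosomes. The authors divided IP by input, and the deposited ratio has a median window of 1 in each track. The submitters' processing notes name FastQC, Bowtie2, SAMtools, deepTools, bedtools and the build sacCer3. The study describes a browser view of these data as scaled to total library reads and names MACS2 for part of its ChIP-seq work. Which steps made the deposited ratios, and how replicates were combined, is not given in the sources used here, so these ratios cannot show a genome-wide change, and the precision of single values is unknown.

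Positions came from RefSeq R64. Of 6002 nuclear ORFs, 214 lie on chromosome IX and 7 had no window. No pseudocount and no filter on low values was used. The members, gene lists and rules were chosen with earlier results of these data known, and the role groups and the intron and upstream parts after the values were seen. Single genes were named by rank: the 5 highest and 5 lowest in WT, the 5 largest differences each way per mutant over the ORF and 3 upstream, the 6 most and 3 least different pairs, and RPL3, RPL10, RPL8A, RPL9B, RPS31, RPL40B and RPP0 for their roles. Python 3.11.15, numpy, pandas and matplotlib were used, and the code was tested on simulated data. Sequences, motifs and copy identity were not analysed here.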

Additional observations from a re-analysis of the deposited data

How the results depend on the processing

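No recomputed median changed sign, so the direction of the ribosomal protein genes held for the ORF and the upstream region in both mutants under the 11 or 12 settings run for each of 8 medians. Of 184 recomputed values, 127 stayed close to the reported ones. A median was called close when it lay inside the interval of the reported one. Among counts, 40 against a reported 29 was called close and 48 was not. Some of the 127 could not move. Counting RPP1 in left the subunit medians fixed, since it belongs to neither subunit. Dividing a track by its mean window cancels in the log2 of A over B. The 127 is therefore not read as a measure of stability. No paired analysis was possible because the tracks hold the replicates of a genotype already combined, which also kept any replicate from being left out. The alternative that removes near-identical copies was not run, since sequences were not used.

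With each track divided by its mean window, the ORF median in *rtt109Δ* was 0.48 (0.49 large, 0.48 small subunit) with 85 higher and 0 lower. The upstream median was then 0.29 with 48 higher, and the WT medians were 0.667 and 0.927. All ORFs split 797 higher to 233 lower in place of 505 to 551. Division by the median region gave 0 lower over the ORF and an upstream median of 0.26 in *rtt109Δ*, and in *rrp6Δ* -0.0642 upstream with 1 higher and 9 lower. With the *rtt109Δ* track given the WT distribution by rank, 1 member was lower over the ORF, and upstream the median was 0.27 with 50 higher. A pseudocount of 0.487 gave *rtt109Δ* medians of 0.26 (ORF; 0.27 large, 0.23 small) and 0.13 (upstream) with 23 and 4 higher (2.73% and 1.85% of all ORFs) and 0 lower over the ORF, and in *rrp6Δ* -0.0703 (small -0.0775) with 0 higher and 0 lower over the ORF and 1 lower upstream. At 1.5-fold, 25 members were higher and 0 lower over the ORF (2.99% and 1.70% of all ORFs) and 1 was higher upstream (1.51%) in *rtt109Δ*, and in *rrp6Δ* 0 were lower or higher over the ORF and 2 lower upstream. The median over windows gave WT medians of 0.752 and 1.03, 10 lower over the ORF in *rrp6Δ*, upstream -0.18 with 33 lower and 2 higher, and 1 lower upstream in *rtt109Δ*. ORFs of at least 300 bp left 1 lower in each mutant and 0 higher in *rrp6Δ*. With 250 bp upstream the WT median was 1.09 and the *rtt109Δ* median 0.32 with 56 higher. The shares over all ORFs were not recomputed for *rrp6Δ* under these settings. Changes in its counts therefore cannot be set against a background.

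These settings were chosen after seeing the data. Members without a second copy gave *rtt109Δ* medians of 0.53 (0.52 large, 0.54 small) over the ORF and 0.37 upstream, and *rrp6Δ* medians of -0.17 (-0.19 large, -0.0426 small) and -0.19. Members whose span is a multiple of 3 gave 0.48 (0.49 large) over the ORF in *rtt109Δ*. On chromosome XII the 18 members had a *rtt109Δ* median of 0.52 over the ORF and the other ORFs 0.04, against -0.05 over all ORFs. Without chromosome XII no median left its interval. The cause of these shifts was not tested.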
